A study of Homo sapiens with 10 samples.

Results

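Nuclear pore complex genes were taken from the deposited expression table by symbol: every gene whose name is NUP followed by a number, with NDC1, AAAS, POM121, POM121C, RANBP2, SEH1L, SEC13, RAE1, TPR and GLE1. The rule used no measured value and found 32 genes among the 20030 of the table. Of these, 31 had a mean of at least 1 FPKM (sequenced fragments relative to transcript length and library size) over the 10 libraries and were tested. The other, NUP210L, a paralog of the membrane nucleoporin NUP210, was listed at 0 to 0.0174 FPKM. Nuclear pore complexes are the channels through which proteins and RNA pass between nucleus and cytoplasm. Each is built from many copies of proteins called nucleoporins, arranged as stacked rings around a central channel lined with unfolded, phenylalanine and glycine-rich repeats. Transport receptors such as the exporter XPO1 cross the channel by binding these repeats, and some nucleoporins on the cytoplasmic face hold XPO1 during export. Pores are taken apart and rebuilt at each division in human cells, and new ones are also inserted in interphase.

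RNA was sequenced from 3 human liver cancer lines, which the labels call Huh7, PLC and 97H, with 1 library for each line and treatment. Controls received vehicle, and the other groups received a CDK4/6 inhibitor, which blocks the kinases that carry cells from G1 into S phase, an XPO1 inhibitor (KPT330 in the sample titles, the name of selinexor), or both together. Huh7 has control and CDK4/6 inhibitor libraries, and PLC and 97H have all 4 conditions, so the replicate is the cell line. The sources used here state neither dose nor time. Defining hepatocyte genes summed to 6103 to 7916 FPKM in the Huh7 libraries, 796.7 to 2027.7 in PLC and 46.4 to 90.1 in 97H, where 3 of the 12 markers (APOB, FGB and FGG) stayed under 1 FPKM in every library. Most of each PLC sum was SERPINA1, at 1673, 1759, 662 and 1380 FPKM in control, CDK4/6 inhibitor, XPO1 inhibitor and combination. ALB was at 3.29 to 9.74 in PLC. All lines had the epithelial keratins KRT8 and KRT18, but the epithelial adhesion gene EPCAM was at 0.0397 to 0.241 FPKM in 97H. Of 12 markers of other cell types, 1 reached 1 FPKM in some library of PLC (CD68), 6 in 97H (with PECAM1, COL1A1, LUM, ACTA2 and KRT7) and 7 in Huh7 (CD68, CD14, COL1A1, COL1A2, LUM, ACTA2 and KRT7). Their sum ranged over 38.6 to 147.6 FPKM in Huh7, 22.8 to 127.2 in PLC and 61.0 to 151.2 in 97H. The PLC sum was nearly all CD68, at 22.7, 64.0, 24.3 and 126.6 FPKM in control, CDK4/6 inhibitor, XPO1 inhibitor and combination. Several of the 12 markers were higher in treated libraries: COL1A2 was at 16.2 and 77.8 FPKM in Huh7 control and CDK4/6 inhibitor, and the proteoglycan LUM at 9.51 and 40.8. In 97H control, CDK4/6 inhibitor, XPO1 inhibitor and combination, LUM was at 3.17, 6.15, 5.67 and 26.0, COL1A1 at 0.166, 1.69, 1.75 and 3.82 and ACTA2 at 0.0943, 0.229, 0.507 and 1.29. Others, under 1 FPKM there, were lower in the treated 97H libraries: COL1A2 was at 0.0993, 0.0831, 0.0394 and 0.0323 and CD14 at 0.348, 0.137, 0.146 and 0.0635. The leucocyte marker PTPRC was at 0 to 0.0226 FPKM throughout. The part of these markers and line differences in the values below was not tested.

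The messages of the pore genes differ widely in base composition, and this property ran beside much of what follows. By the longest coding transcript in GENCODE 29 on GRCh38, their content of G and C (GC content) spanned 36.4% in NUP58 to 58.4% in NUP62, with a median of 44.4% against 50.1% over all tested genes. Lengths ran from 1603 bases in SEC13 to 11711 in RANBP2, with a median of 5233 against 3209. For NUP58, NUP62 and NUP210, from the 2 ends of that range of GC content, 90 bases from the middle of the coding sequence are printed. Every G and C is in capitals, and these letters make up 42.2%, 64.4% and 62.2% of the windows. The whole coding sequences have 45.6%, 60.8% and 59.3%. The coding sequence of NUP58 thus does not show the 36.4% of its whole transcript. NUP58 and NUP62 encode proteins that sit side by side in the central channel, and NUP210 a protein of the pore membrane.
NUP58: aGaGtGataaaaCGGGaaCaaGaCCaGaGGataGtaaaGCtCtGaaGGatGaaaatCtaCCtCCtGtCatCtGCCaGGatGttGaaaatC
NUP62: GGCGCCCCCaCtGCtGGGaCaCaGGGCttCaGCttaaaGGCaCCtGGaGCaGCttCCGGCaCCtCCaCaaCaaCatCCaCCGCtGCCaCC
NUP210: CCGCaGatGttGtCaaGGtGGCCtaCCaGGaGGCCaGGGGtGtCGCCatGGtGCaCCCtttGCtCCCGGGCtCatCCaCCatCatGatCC

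Promoters were read to see which letters the genes have in common. RefSeq's promoter table (GRCh38.p14, 250 bases before to 50 after the start) held 30 of the 32 genes, and 7 short motifs were searched on both strands in the first start listed. The ETS core CCGGAAG lay in 13 of 30 pore promoters (43.3%), against 10.6% of all 27305 promoters and 20.1% of the 8344 promoters of tested genes. NRF1's palindrome GCGCATGCGC lay in 3 of 30 (10% against 1.31% and 2.21%), those of NUP107, NUP50 and NUP62. GGGCGG, the core of SP1 sites, was present in 43.3% of pore promoters against 43.8% of all and 71.0% of tested promoters. CCAAT was found in 40% against 35.6% and 36.8%, and the core TTTGAA of the cell-cycle homology region in 20% against 15.6% and 9.34%. Of the E2F letters, TTTCCCGC was in none of the 30 (1.62% of all, 2.64% of tested) and TTTGGCGC in 1, NUP155 (0.656% and 1.16%). A match is a description of letters, not a binding site, and no binding was measured here. None of the motifs searched is contained in another.

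The promoters of 3 genes show these arrangements, with matched motifs in capitals. NUP107, of the scaffold, has an inverted CCAAT, an NRF1 palindrome and a pair of inverted ETS cores within chr12:68686728-68687027 (plus strand), with first bases at -138, -84, -10 and 11 from the start. NUP58 has 1 inverted ETS core at -66 in chr13:25301375-25301674 (plus strand). NUP188, an inner ring gene, has 4 SP1 cores and no ETS core in chr9:128947449-128947748 (plus strand).
NUP107: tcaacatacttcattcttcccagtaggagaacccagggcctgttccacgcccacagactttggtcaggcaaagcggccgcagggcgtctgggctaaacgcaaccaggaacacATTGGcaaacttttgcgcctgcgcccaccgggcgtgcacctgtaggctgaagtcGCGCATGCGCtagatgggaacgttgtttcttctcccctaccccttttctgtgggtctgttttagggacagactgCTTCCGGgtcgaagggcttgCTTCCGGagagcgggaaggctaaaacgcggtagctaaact
NUP58: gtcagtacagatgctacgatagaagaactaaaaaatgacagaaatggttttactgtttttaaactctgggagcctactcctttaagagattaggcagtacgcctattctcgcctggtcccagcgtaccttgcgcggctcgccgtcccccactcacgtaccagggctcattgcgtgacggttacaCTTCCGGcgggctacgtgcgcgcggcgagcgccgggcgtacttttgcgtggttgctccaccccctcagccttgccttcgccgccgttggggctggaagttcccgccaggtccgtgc
NUP188: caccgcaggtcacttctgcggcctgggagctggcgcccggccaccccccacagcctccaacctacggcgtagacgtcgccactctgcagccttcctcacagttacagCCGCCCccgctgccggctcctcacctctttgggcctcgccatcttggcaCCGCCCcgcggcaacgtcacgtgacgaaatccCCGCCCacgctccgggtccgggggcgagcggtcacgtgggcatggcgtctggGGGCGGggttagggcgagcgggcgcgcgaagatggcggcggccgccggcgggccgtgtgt

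Levels of the 31 genes per transcript length spread over a wide range within a cell. SEC13, which also serves in the COPII coat of secretory vesicles, had the highest mean, 48.3 FPKM over the 10 libraries. Its values were 84.8 and 73.4 FPKM in Huh7 control and CDK4/6 inhibitor, 54.6, 50.8, 41.4 and 52.8 in PLC (control, CDK4/6 inhibitor, XPO1 inhibitor and combination, an order kept throughout) and 34.7, 37.6, 27.5 and 25.5 in 97H. The lines did not overlap, with Huh7 highest and 97H lowest. TPR, the long coiled-coil protein of the nuclear basket, had the lowest mean among the tested genes, 1.19 FPKM. It was at 2.08 and 1.67 in Huh7, 0.736, 2.62, 1.63 and 0.663 in PLC and 0.719, 0.335, 0.728 and 0.742 in 97H, so that PLC and 97H overlapped. The median over the 31 genes lay between 6.71 FPKM (97H combination) and 14.4 FPKM (PLC XPO1 inhibitor), and their sum between 286.5 FPKM (97H combination) and 501.7 FPKM (Huh7 control).

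**Figure D1:**
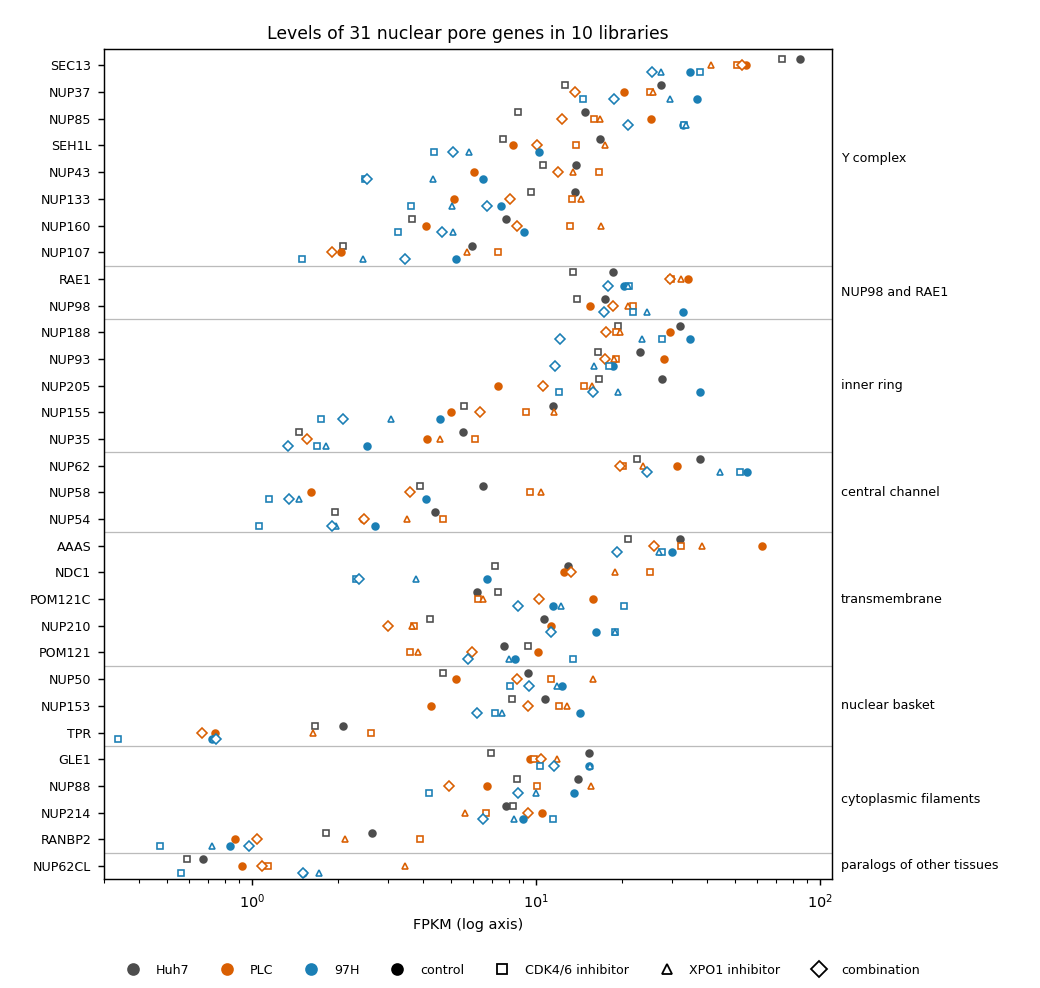
FPKM of the 31 tested nuclear pore genes (log axis), 1 point per library, coloured by cell line and shaped by treatment, grouped by place in the pore. SEC13 has the highest mean, with points at 25.5 to 84.8 FPKM, but other genes exceed it in some PLC and 97H libraries. In the PLC control AAAS is at 62.2 against 54.6, and in the 97H control NUP62 is at 55.1 against 34.7. TPR and RANBP2 are among the lowest, and the 97H points (blue) of NDC1 and NUP155 all lie left of the PLC points (orange).

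Few of the genes separated PLC from 97H whatever the treatment. Every PLC library lay above every 97H library for 4 of 31 (NDC1, NUP155, RAE1 and SEC13), against 27.1% of all tested genes, and the reverse held for none, against 16.5%. NDC1, a membrane protein that anchors the pore, was at 12.5, 25.2, 18.9 and 13.2 FPKM in PLC and at 6.70, 2.32, 3.77 and 2.38 in 97H. RAE1, the partner of NUP98 in messenger RNA export, was at 34.3, 29.8, 32.5 and 29.5 in PLC and at 20.3, 21.2, 21.0 and 17.9 in 97H, and at 18.7 and 13.4 in Huh7, which overlapped with 97H. The PLC and 97H values of RAE1 each lay close together, and Huh7 had the wider gap. These are levels of 1 library each, and libraries of a line are not replicates of a condition. The count of 4 became 7 when the control or the combination library of PLC was left out and 8 without that of the 97H control, and the count of 0 became 3 without either the PLC control or the 97H combination.

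In no comparison did a nuclear pore gene pass the test. Differences on log2(FPKM + 1) were tested with limma, with the cell line as a block and Benjamini-Hochberg adjustment over the 10477 tested genes, and a gene was called at an adjusted p under 0.05. For the CDK4/6 inhibitor against control over 3 lines, 0 of 31 were called, beside 0.0% of all genes, and 2 of 31 had an unadjusted p under 0.05 (both lower) beside 8.80% of all genes. With the XPO1 inhibitor 0 of 31 were called (0.0% of all), and none had an unadjusted p under 0.05 (2.46% of all). The combination against control gave 0 of 31 while 0.792% of all genes were called (83), and 4 of 31 had an unadjusted p under 0.05, all lower, beside 12.4% of all. Against the CDK4/6 inhibitor or the XPO1 inhibitor alone, the combination gave 0 of 31 called (0.0% of all in each) and none at an unadjusted p under 0.05 (3.29% and 4.96% of all). With 2 or 3 lines and 3 or 4 residual degrees of freedom, a p that misses the threshold does not show that levels were alike. Libraries were made from whole cultures, so fewer cells of a kind and less message per cell cannot be told apart. Fitted means below 0 were found for 27 of 31 genes under CDK4/6 inhibition (46.3% of all), 13 under XPO1 inhibition (40.5%) and 26 under both drugs (43.7%). They were found for 28 in the combination against the CDK4/6 inhibitor (50.8%) and 27 against the XPO1 inhibitor (54.7%). These counts moved when 1 library was left out: the 13 became 26 without the PLC control, the 26 became 13 without the 97H control, and the 28 became 13 without the PLC CDK4/6 inhibitor library. The lines also differed in direction, as the values by line show.

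With the CDK4/6 inhibitor, most pore genes were lower in Huh7 and 97H and higher in PLC. In Huh7, 28 of 31 were below their control (54.2% of all tested genes) with a median log2 difference of -0.65 beside -0.04 over all genes. In 97H 24 were below (55.0% of all), with a median of -0.55 (all genes -0.06). In PLC 11 were below (39.9% of all), and the median was 0.48 (all genes 0.18). PLC was above its control while both other lines were below in 20 of 31, beside 26.4% of all genes. Only AAAS, NUP188, NUP62 and NUP93 were lower in all 3 lines (4 of 31, beside 10.3% of all, 6 or 3 with quantile or median ratio scaling, 7 with GC and length trends subtracted), and none was higher in all 3 (12.9% of all). The fitted median over the lines was -0.33 (all genes 0.03), and leaving out 1 library moved it between -0.61 (without the PLC control) and -0.13 (without either Huh7 library). These 3 lines thus gave no common direction for most of the genes.

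NUP58, NUP205 and NUP160, of 36.4%, 44.4% and 43.3% GC, show the split plainly. NUP58 was at 6.50 FPKM in Huh7 control and 3.88 with the CDK4/6 inhibitor, at 1.60, 9.46, 10.4 and 3.58 in PLC, and at 4.09, 1.15, 1.46 and 1.35 in 97H. Its lowest PLC value and its highest 97H value are both the control. NUP205, a large scaffold protein of the inner ring, was at 27.8 and 16.7 in Huh7, 7.33, 14.7, 15.7 and 10.5 in PLC, and 37.8, 12.0, 19.3 and 15.9 in 97H, the same arrangement. NUP160, of the Y-shaped outer ring complex, was at 7.85 and 3.64 in Huh7, 4.08, 13.2, 16.8 and 8.55 in PLC, and 9.07, 3.24, 5.10 and 4.64 in 97H. These 3 genes were picked as examples after their values were seen, and some genes of low GC content parted less. With the CDK4/6 inhibitor NUP37 (38.6% GC) was at 0.29 in PLC and -1.27 in 97H, and NUP62CL (39.8%) at 0.16 and -0.68. In PLC the control was the lowest of the 4 libraries for 15 of 31 pore genes (42.7% of all tested genes) and the highest for 11 (28.2%). In 97H the control was the highest for 20 of 31 (32.9%) and the lowest for none (27.9%).

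**Figure D2:**
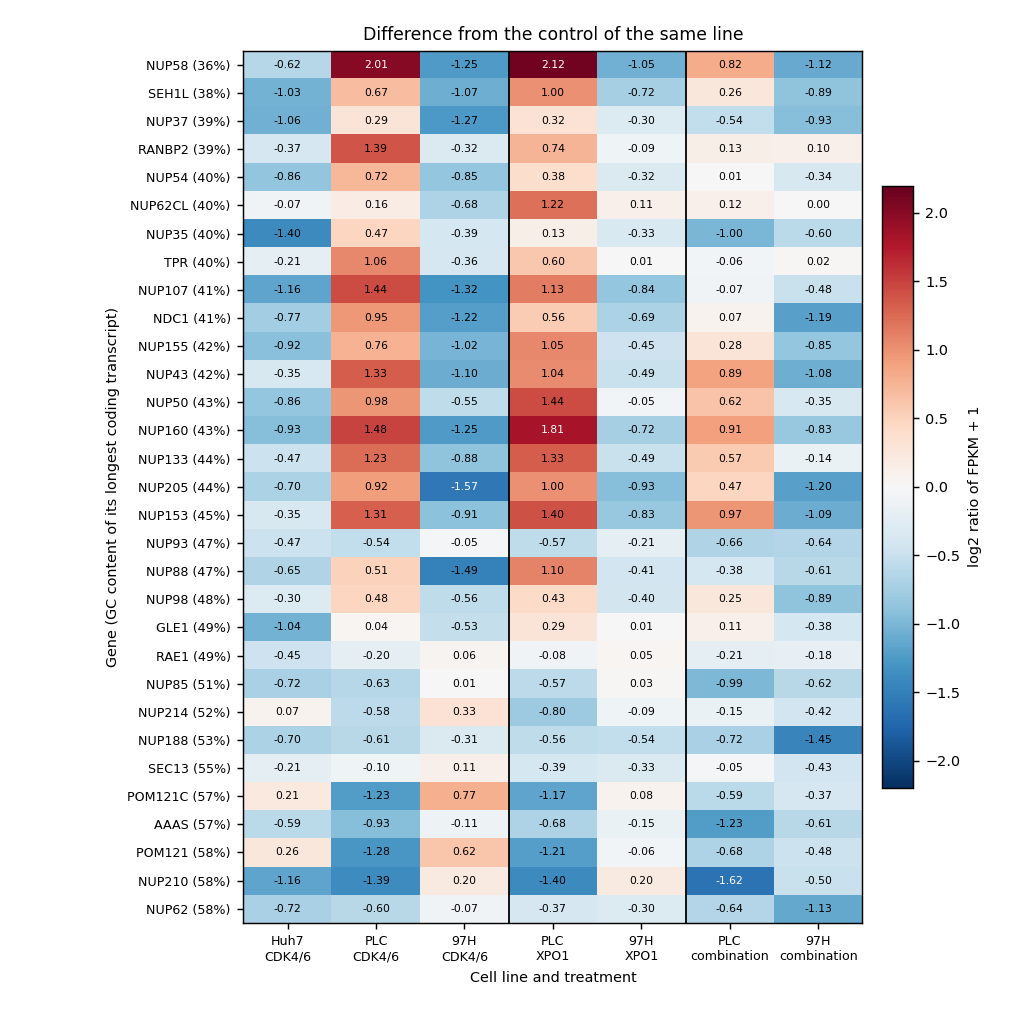
Difference of each treated library from the control of its own line, as the log2 ratio of FPKM + 1 (red higher, blue lower), for 31 nuclear pore genes ordered from low transcript GC content (top) to high (bottom). With either single inhibitor the PLC column passes from red at the top (NUP58 at 2.01 and 2.12) to blue at the bottom (NUP210 at -1.39 and -1.40), while the 97H CDK4/6 column runs from blue to pale red.

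With the single inhibitors, the direction in PLC and 97H followed GC content in the pore genes as in the table at large. Across the 31 genes, which are not independent replicates and share both libraries of each difference, Spearman's rho of the CDK4/6 inhibitor's difference with GC content was -0.74 in PLC and 0.67 in 97H, beside -0.68 and 0.72 over all 10448 genes with a GC value. In Huh7 it was 0.29 beside 0.18. For the 17 genes under 45% GC the PLC median was 0.98 and the 97H median -1.02, beside 0.84 and -0.54 for all genes under that limit. The 9 genes of 50% or more had -0.63 in PLC and 0.11 in 97H, beside -0.28 and 0.22. Under XPO1 inhibition the rho was -0.67 in PLC and 0.38 in 97H (all genes -0.72 and 0.47), and under both drugs -0.51 and -0.05 (all genes -0.29 and 0.26). Trends of each library on GC content and length were then fitted over all genes and subtracted. With them subtracted, the CDK4/6 medians of the pore genes became -0.68 in Huh7, 0.02 in PLC and -0.46 in 97H (all genes -0.06, 0.21 and -0.10). A relation with GC content remained in the pore genes. Their rho after subtraction was 0.04 in Huh7, -0.48 in PLC and 0.33 in 97H with the CDK4/6 inhibitor. In PLC and 97H it was -0.40 and -0.13 with the XPO1 inhibitor and -0.42 and -0.13 with the combination. The part of GC content in any single gene's difference was not tested.

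**Figure D3:**
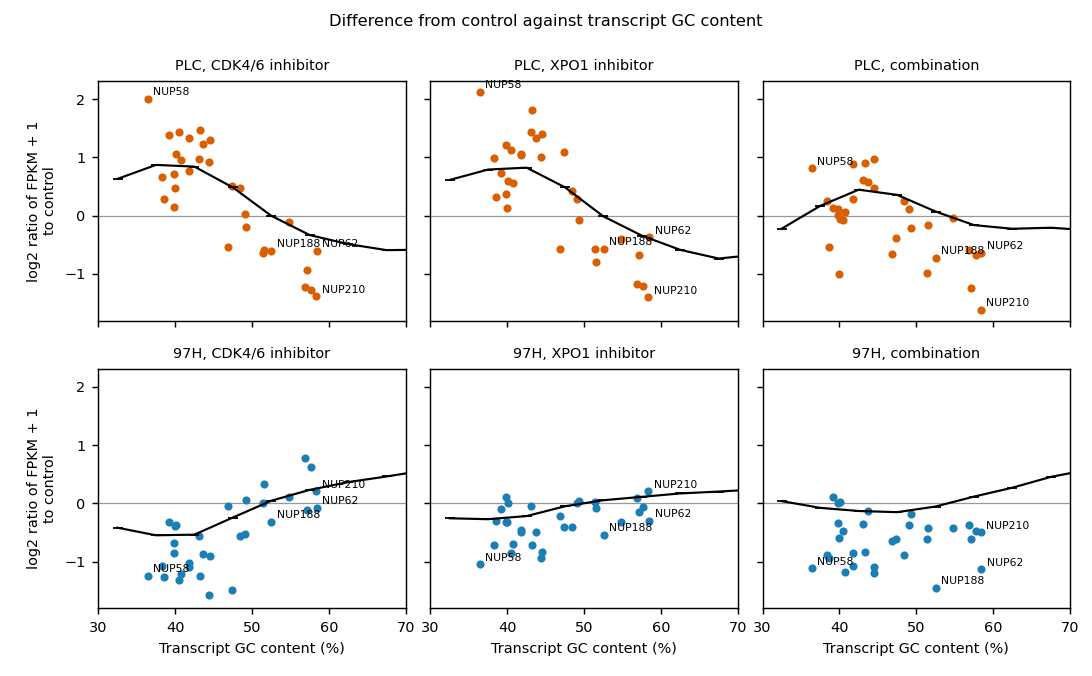
Difference from control (log2 ratio of FPKM + 1) against transcript GC content for the nuclear pore genes (points) in PLC (top row) and 97H (bottom row) with each treatment, and the median of all genes in 5-point bins of GC content (black line). With the single inhibitors the points follow the slope of the line, downward in PLC and upward in 97H, and in the 97H combination panel most points lie below it.

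NUP188, AAAS and NUP62 had the smallest p among genes lower in every line with the CDK4/6 inhibitor, and none was called. AAAS (chr12:53307456-53324864 on GRCh38) encodes ALADIN, which NDC1 holds at the pore. It was at 32.0 and 21.0 FPKM in Huh7, 62.2, 32.2, 38.4 and 25.9 in PLC and 29.99, 27.8, 26.9 and 19.3 in 97H. The control was the highest library in each line, and the combination was the lowest in PLC and 97H. Its fitted difference with the CDK4/6 inhibitor was -0.54 (SE 0.23, limma adjusted p = 0.550). NUP188 (chr9:128947699-129007096), the counterpart of NUP205 in the inner ring, stood at 32.2 and 19.4 in Huh7, 29.6, 19.1, 19.7 and 17.6 in PLC and 34.8, 27.8, 23.6 and 12.1 in 97H. Here too each line's control was highest and the combination lowest, and the CDK4/6 difference was -0.54 (SE 0.25, limma adjusted p = 0.580). NUP62 (chr19:49906825-49929763), a channel nucleoporin rich in repeats, was at 37.7 and 22.6 in Huh7, 31.2, 20.2, 23.8 and 19.7 in PLC and 55.1, 52.3, 44.4 and 24.6 in 97H. It had the same order of control and combination, with a CDK4/6 difference of -0.46 (SE 0.25, limma adjusted p = 0.626) that was -0.07 in 97H. Of the exon sequence of NUP62 in 50-base words, 18.9% also occurs in other annotated genes, AC011452.1 and IL4I1 most, and the counting of shared reads is not stated.

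Under the XPO1 inhibitor the pore genes again parted by line. The PLC median was 0.43 and that of 97H -0.32, beside 0.14 and -0.02 over all genes. With the GC and length trends subtracted the PLC median was 0.08 and that of 97H -0.25, beside 0.18 and -0.03 over all genes. Below control were 11 in PLC (41.5% of all, 15 with the trends subtracted) and 24 in 97H (52.7%, then 25). PLC was higher and 97H lower in 17 of 31, beside 35.7% of all genes, and 4 had the reverse (24.4%). Lower in both lines were 7 (16.8% of all, 9 or 8 with quantile or median ratio scaling, 12 with the trends subtracted). Higher in both were 3 (21.7%, and 1 or 4 with those scalings), GLE1, NUP62CL and TPR. NUP62CL, a shorter relative of NUP62, was at 0.672 and 0.590 FPKM in Huh7, 0.918, 1.14, 3.46 and 1.08 in PLC and 1.51, 0.560, 1.71 and 1.51 in 97H. The XPO1 inhibitor library was highest in both lines, and the fitted difference was 0.66 (SE 0.35, limma adjusted p = 0.968). GLE1, which activates the export helicase DDX19 at the cytoplasmic face, was at 15.3 and 6.94 in Huh7, 9.51, 9.78, 11.8 and 10.4 in PLC and 15.3, 10.3, 15.4 and 11.5 in 97H. Its XPO1 inhibitor difference, 0.15 (SE 0.35, limma adjusted p = 0.971), rests on 0.29 in PLC and 0.01 in 97H. SEC13 was lower in both lines, at -0.36 (SE 0.29, limma adjusted p = 0.968). The fitted median of 0.03 over all 31 genes became -0.08 with median ratio scaling and -0.03 with quantile normalization, and it ran from -0.32 without the PLC control to 0.51 without the 97H control.

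RANBP2, NUP214 and NUP98 carry repeats or sites that bind XPO1, the protein the drug inhibits. RANBP2, the giant filament protein that also holds the SUMO-modified Ran GTPase activator, was at 2.63 and 1.81 FPKM in Huh7, 0.867, 3.88, 2.12 and 1.04 in PLC and 0.837, 0.473, 0.720 and 0.973 in 97H. PLC and 97H overlapped, and 27.1% of its 50-base words occur in other genes, the RGPD copies, so its counts are uncertain. NUP214, a filament nucleoporin fused to other genes in some leukaemias, was at 7.83 and 8.26 in Huh7, 10.5, 6.66, 5.61 and 9.31 in PLC and 8.96, 11.5, 8.37 and 6.46 in 97H. The control was highest in PLC, and the CDK4/6 inhibitor library was highest in 97H. NUP98, which forms much of the channel's barrier and binds RAE1, was at 17.4 and 13.9 in Huh7, 15.5, 22.0, 21.1 and 18.6 in PLC and 32.9, 22.0, 24.6 and 17.3 in 97H. With the XPO1 inhibitor NUP98 was at 0.43 in PLC and -0.40 in 97H. XPO1 itself, no nucleoporin, was at 21.4 and 9.84 FPKM in Huh7, 8.65, 20.6, 48.3 and 18.1 in PLC and 15.9, 5.71, 19.2 and 21.7 in 97H. All treated PLC libraries lay above their control, that of the CDK4/6 inhibitor among them. The fitted difference with the XPO1 inhibitor was 1.30 (SE 0.58, limma adjusted p = 0.968).

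POM121 and POM121C, near-identical membrane nucleoporins that help to start new pores in interphase, took the opposite course to NUP160 and NUP205 with the CDK4/6 inhibitor. POM121 was at 7.69 and 9.38 FPKM in Huh7, 10.2, 3.60, 3.83 and 5.96 in PLC and 8.41, 13.4, 8.0 and 5.76 in 97H. POM121C was at 6.17 and 7.31 in Huh7, 15.9, 6.21, 6.51 and 10.2 in PLC and 11.5, 20.3, 12.2 and 8.61 in 97H. Both had their highest PLC value in the control, their highest 97H value with the CDK4/6 inhibitor and their lowest 97H value with the combination. They share sequence: 52.1% of the 50-base words of POM121C occur in POM121 and 25.7% of those of POM121 in POM121C, so the levels of the pair cannot be told apart with confidence. Their GC contents are 57.7% and 56.9%. NUP210, also at this end of the range with 58.3%, was at 10.7 and 4.23 in Huh7, 11.3, 3.70, 3.65 and 3.0 in PLC and 16.3, 18.9, 18.9 and 11.2 in 97H. Its control stood far above the 3 treated PLC libraries, and in 97H only the combination was below the control.

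With the combination, pore genes were mostly below control in 97H and split in PLC. In 97H 28 of 31 were lower, beside 51.0% of all tested genes, and the median was -0.61 beside -0.01. In PLC 16 of 31 were lower (42.7% of all), and their median over the 31 was -0.05 beside 0.10. Both lines were lower in 15 (24.2% of all), 2 were higher in both (RANBP2 and NUP62CL, the second by 0.00 in 97H, 29.6% of all), 13 were higher in PLC and lower in 97H (26.6%), and TPR alone was lower in PLC and higher in 97H (18.2%). Quantile normalization put 19 lower in both lines and median ratio scaling 18. Subtracting the GC and length trends put 20 there, with a PLC median of -0.27 and a 97H median of -0.53. The 97H combination library was the lowest of its line for 14 of 31 pore genes, beside 27.3% of all. The fitted median over both lines, -0.29 (all genes 0.07), moved from -0.61 without the PLC control to 0.18 without the 97H control.

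NUP188 led the combination comparison, at -0.72 in PLC and -1.45 in 97H, a fitted difference of -1.09 (SE 0.34, limma adjusted p = 0.224). With the GC and length trends subtracted it was -1.10 (SE 0.23) and passed, at a limma adjusted p of 0.0354, the only call on a pore gene under any setting. That setting called 557 of all 10448 genes, beside 83 of 10477 without the subtraction, so 1 call among 31 does not set the pore genes apart. AAAS was at -1.23 in PLC and -0.61 in 97H (fitted -0.92, SE 0.31, limma adjusted p = 0.253), and NUP62 at -0.64 and -1.13 (fitted -0.88, SE 0.32, limma adjusted p = 0.308). NUP85, a scaffold protein of the outer ring, was at 14.8 and 8.60 FPKM in Huh7, 25.4, 16.0, 16.7 and 12.3 in PLC and 32.9, 33.1, 33.5 and 21.1 in 97H. The 3 other 97H libraries were nearly level and the combination stood apart below them, for a fitted difference of -0.80 (SE 0.31, limma adjusted p = 0.334). NUP210 was at -1.62 in PLC and -0.50 in 97H. These 5 genes have GC contents of 51.4% to 58.4%, but some genes of lower GC content were also lower in both lines. Among these, picked after their values were seen, NUP35 (39.99% GC) had a fitted difference of -0.80, NUP37 (38.6%) -0.74 and NUP93 (46.8%) -0.65. Over the 31 genes, Spearman's rho of the combination's difference with GC content was -0.51 in PLC and -0.05 in 97H.

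**Figure D4:**
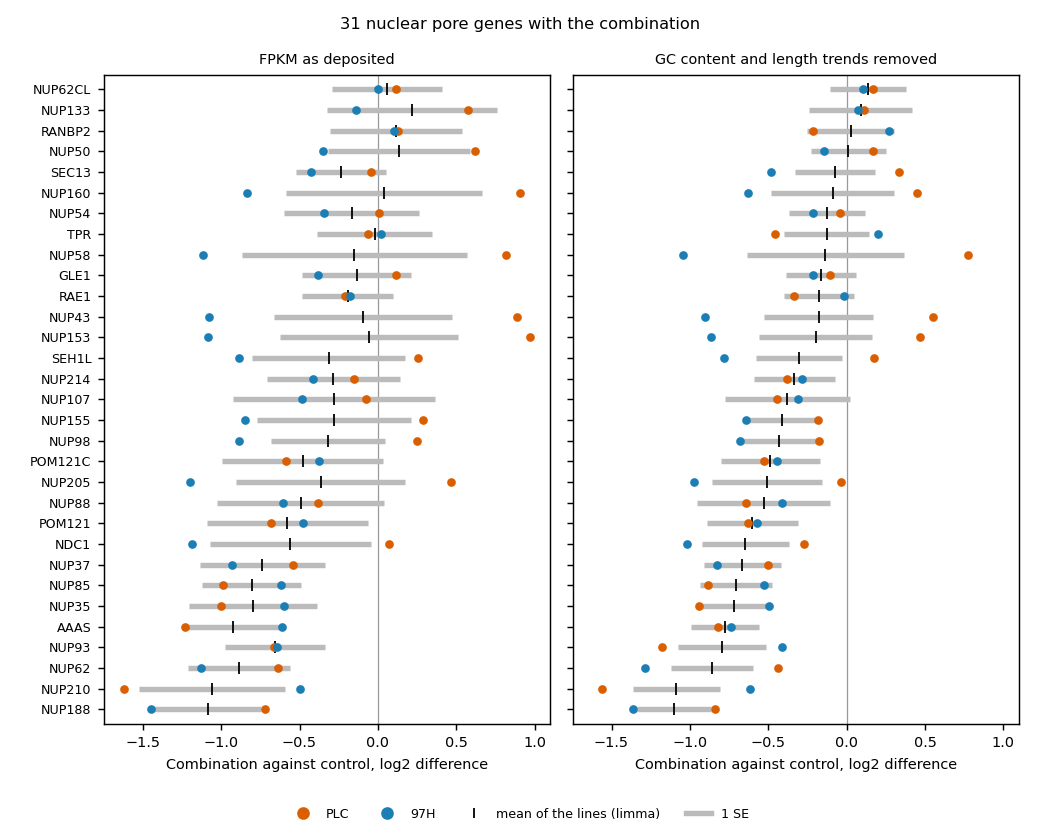
Log2 difference of the combination from control for 31 nuclear pore genes in PLC (orange) and 97H (blue), with the limma mean of both lines (tick) and 1 standard error on each side (grey bar), from FPKM as deposited (left) and with the GC and length trends subtracted (right). NUP188 is lowest on both sides, at -1.09 and -1.10, and the PLC and 97H points of NUP43, NUP58, NUP153 and NUP160 fall on opposite sides of 0 in both panels.

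The genes were also read by place in the pore, with medians of the combination's difference from control. The 8 genes that the symbol rule gave for the Y complex, part of the outer scaffold, stood at 0.10 in PLC and -0.73 in 97H. Of them 4 were lower in both lines. In the inner ring the medians of 5 genes were -0.66 and -0.85, and 3 were lower in both lines. The 3 central channel genes had 0.01 and -1.12, with NUP62 lower in both lines. Membrane and membrane-bound genes (5, AAAS counted among them) had -0.68 and -0.50, and 4 were lower in both lines, all but NDC1. NUP50, NUP153 and TPR, of the nuclear basket, stood at 0.62 in PLC and -0.35 in 97H, and none was lower in both. NUP50, which speeds release of cargo from importin, was at 9.32 and 4.70 FPKM in Huh7, 5.22, 11.2, 15.9 and 8.56 in PLC and 12.3, 8.07, 11.8 and 9.44 in 97H. The pair NUP98 and RAE1 had medians of 0.02 and -0.53. The 4 cytoplasmic filament genes had -0.02 and -0.40, and 2 of them, NUP88 and NUP214, were lower in both lines. NUP88, the partner of NUP214, was at 14.0 and 8.56 in Huh7, 6.72, 10.02, 15.5 and 4.93 in PLC and 13.6, 4.19, 9.97 and 8.59 in 97H. Median GC contents of the groups run from 39.8% in the channel and 42.5% in the Y complex to 57.1% in the membrane group. With the GC and length trends subtracted, the PLC and 97H medians were 0.14 and -0.58 in the Y complex and -0.84 and -0.64 in the inner ring. They were -0.04 and -1.04 in the channel, -0.63 and -0.62 in the membrane group and 0.17 and -0.15 in the basket. NUP98 with RAE1 had -0.26 and -0.35, and the filaments -0.30 and -0.25. Of all tested genes, 24.2% were lower in both lines. No test compared the groups.

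The combination was also set against each single drug, and these comparisons share the combination libraries. Against the XPO1 inhibitor 23 of 31 were lower in both lines (28.3% of all genes, 24 or 21 with quantile or median ratio scaling) and none higher in both (24.2%). In PLC 27 were lower (56.0%) and in 97H also 27 (47.1%), and the PLC and 97H medians were -0.49 and -0.30 beside -0.07 and 0.01. NUP37, of the Y complex, was at 27.5 and 12.7 FPKM in Huh7, 20.4, 25.1, 25.7 and 13.6 in PLC and 36.7, 14.6, 29.6 and 18.8 in 97H, a fitted difference of -0.75 (SE 0.40, limma adjusted p = 1). Against the CDK4/6 inhibitor 10 of 31 were lower in both lines (21.7% of all, 12 or 8 with quantile or median ratio scaling, 17 with the GC and length trends subtracted), 1 was higher in both (GLE1, 20.7%), 16 were lower in PLC and higher in 97H (35.7%), and 4 the reverse (20.8%). In PLC 26 were lower (57.8%) and in 97H 14 (42.7%). NUP35, a small inner ring protein that bends membrane, was at 5.50 and 1.46 in Huh7, 4.11, 6.08, 4.58 and 1.55 in PLC and 2.53, 1.69, 1.82 and 1.34 in 97H. Its combination library was the lowest in both lines, at -0.84 from the CDK4/6 inhibitor (SE 0.41, limma adjusted p = 1) and -0.70 from the XPO1 inhibitor (SE 0.41, limma adjusted p = 1). The median against the CDK4/6 inhibitor was -0.36 in PLC and 0.03 in 97H, and the latter turned to -0.19 and -0.07 with quantile and median ratio scaling and to -0.20 with the trends subtracted.

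Other genes of nuclear transport and of the cell cycle were read from the same tests. Of 27 tested transport receptors and Ran cycle genes, 0 were called with the combination (0.792% of all genes). Their PLC and 97H medians were 0.22 and -0.58. RCC1, which charges Ran with GTP, had the smallest p among them at -1.39 (SE 0.31, limma adjusted p = 0.0965). None of 18 messenger RNA export factors was called, and the helicase DDX39A was at -1.69 (SE 0.32, limma adjusted p = 0.0569). Pore partners here are genes outside the symbol rule whose proteins belong to the pore, dock on it or act there. They gave 0 called of 17 tested, with medians of 0.30 and -0.29. Among these AHCTF1, which seeds pores on chromatin after division, was at 0.26 in PLC and -0.67 in 97H. By contrast 8 of 18 genes of G2 and mitosis were called lower with the combination and none higher. All 18 had a fitted mean below 0 (43.7% of all genes), and the PLC and 97H medians were -2.16 and -2.29. PLK1, a kinase of mitotic entry, fell by 3.27 (SE 0.33, limma adjusted p = 0.0176). Of 22 DNA replication genes, 9 were called lower and none higher, and all 22 had a fitted mean below 0. Their medians were -1.89 and -1.55, and RRM2, a subunit of ribonucleotide reductase, fell by 3.52 (SE 0.40, limma adjusted p = 0.0198). The pore genes' medians of -0.05 and -0.61 stand beside these values, and the difference between the lists was not tested.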

How the data were processed

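RNA from 10 libraries was extracted with Trizol and prepared with a TruSeq kit, per the labels' protocols. Per the submitters' processing notes, CASAVA 1.8.2, STAR 2.4.2g1, featureCounts of Subread and GRCh38 were used. The authors deposited FPKM for 20030 genes in 1 table, and the sources used here do not say how FPKM was obtained or whether counting used strand. Values per sample summed to 321388 to 377933 FPKM with 14033 to 15264 genes above 0, the read depth is unknown, and no interval from counts could be given. In 27 entries a symbol turned into a date was restored. Symbols were matched to GENCODE 29 for 10448 of 10477 tested genes. Reads from overlapping or antisense genes cannot be told apart without strand.

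limma 3.58.1 (R 4.3.3; lmFit, eBayes with trend, two-sided) was run on log2(FPKM + 1), which understates changes of low genes, for genes whose mean reached 1 FPKM. All 10 libraries entered the CDK4/6 inhibitor comparison (4 residual degrees of freedom) and the 8 of PLC and 97H the 4 others (3). Cell line was a block: control and CDK4/6 inhibitor libraries of 1 line deviated together from their group means, with a Pearson r of 0.901 (Huh7), 0.665 (PLC) and 0.818 (97H). Nothing says that libraries came from separate cultures. The pairing comes from the line named in the labels. The code was tested on simulated data with less spread than these libraries, which does not show what the test could detect here. Named genes were, per comparison, up to 3 up and 3 down with the smallest p among those of 1 direction in every line, the highest and lowest in level, the XPO1 docking genes, the POM121 pair and the smallest p per place in the pore; others are said to be chosen after their values were seen, and NUP210 and AHCTF1 were chosen so too. Alternatives were pseudocounts of 0.1 and 0.5, no filter or 5 FPKM, quantile and median ratio scaling, GC content and length trends removed, a single prior variance, no block, other library sets and each library left out. The members and lists were chosen with earlier results of these data known.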

Additional observations from a re-analysis of the deposited data

Results flagged for a closer look

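The 2 lines that received every treatment lay on opposite sides of their controls for many pore genes. With the CDK4/6 inhibitor 20 of 31 genes were higher in PLC and lower in 97H, beside 42.7% of all tested genes. With the XPO1 inhibitor the number was 17, beside 35.7%, and with the combination 13, beside 26.6%. There is 1 library per line and treatment, all 3 comparisons share the control libraries, and the difference between the lines was not tested.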

How the results depend on the processing

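The count of pore genes called was 0 in each of 5 comparisons under every alternative except 1: with GC content and length trends removed, 1 gene was called with the combination against control (NUP188, -1.10, limma adjusted p = 0.0354). Over all genes the 83 calls of that comparison became 557 with the trends removed, 153 with quantile normalization, 261 with all 10 libraries, 27 with a single prior variance, 1 without a filter, 0 when either the control or the combination library of PLC was left out and 2 without the 97H combination. Without the replicate block the pore genes called were 0 in each comparison, those at an unadjusted p under 0.05 were 0, 0, 1, 0 and 0, and the combination called 0 of all genes. Directions reversed for genes near 0 with the combination: RANBP2 to -0.024 (quantile normalization) and -0.034 (all 10 libraries), NUP62CL to -0.084 (quantile normalization) and NUP50 to -0.044 (all 10 libraries). The cause was not tested.

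Leaving out 1 library at a time, the called counts stayed at 0 to 0, and the medians ranged from -0.608 to -0.129 (CDK4/6 inhibitor), -0.321 to 0.513 (XPO1 inhibitor), -0.605 to 0.184 (combination against control), -0.508 to 0.245 (against the CDK4/6 inhibitor, the highest without the PLC CDK4/6 inhibitor library) and -0.481 to -0.228 (against the XPO1 inhibitor, the highest without the PLC XPO1 inhibitor library). Genes above in every PLC library ranged from 4 to 8, and in every 97H library from 0 to 3. Single genes that changed sign ranged as follows: TPR from -0.019 to 0.627 and GLE1 from -0.074 to 0.372 (XPO1 inhibitor), and GLE1 from -0.042 to 0.269 (combination against the CDK4/6 inhibitor). With the combination against control they were RANBP2 from -0.312 to 0.544, NUP62CL from -0.285 to 0.401, NUP98 from -0.820 to 0.184, NUP50 from -0.531 to 0.800, NUP88 from -1.12 to 0.132, NUP214 from -0.686 to 0.115 and POM121C from -1.06 to 0.097. Scaling moved the median of all genes by over 0.1 in PLC with the CDK4/6 inhibitor (-0.20 quantile, -0.18 median ratio) and the XPO1 inhibitor (-0.15 and -0.16), and in 97H with the CDK4/6 inhibitor (0.13, median ratio). The pore medians kept their sign there, at 0.20 and 0.21, 0.27 and 0.15, and -0.36. A lone library left in a group is assumed to vary like the others.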

Other observations

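Transport genes outside the pore showed values that the comparisons above did not describe. KPNA2, an importin that carries classical import cargo, was at 161 and 79.8 FPKM in Huh7, 76.1, 133, 83.7 and 51.0 in PLC and 106, 60.0, 44.1 and 16.3 in 97H. The combination library was the lowest of both lines, at -1.60 (SE 0.44, limma adjusted p = 0.176). IPO4, an importin for histones and ribosomal proteins, was at 96.6, 36.0, 24.8 and 31.2 FPKM in PLC and 30.2, 25.7, 22.5 and 12.1 in 97H, a combination difference of -1.42 (SE 0.40, limma adjusted p = 0.180). CETN2, a centrin found at centrosomes and in the export complex of the pore, was at 18.1, 30.4, 34.6 and 24.9 in PLC and 44.7, 36.0, 35.2 and 81.6 in 97H, at 0.64 with the combination (SE 0.42, limma adjusted p = 0.611).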
